A study of Mus musculus with 12 samples.

Results

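Tmcc2, Fam46c, Tcp11l2, Fam214b, Apol11b and Gm45837 were 6 of the 29838 genes in a table of RNA levels across terminal erythroid differentiation. These genes, less studied in erythroblasts than the globin or membrane genes, were grouped because their RNA was much higher in later cells than in Pro cells of these same libraries. Gm45837 ranked 1 and Fam214b and Apol11b ranked 4 and 5 of 178 genes with a higher level in Baso than in Pro, Gm45837 ranked 5 of 322 genes in Poly, and Tmcc2, Fam46c and Tcp11l2 ranked 2, 4 and 5 of 562 genes in Ortho. Those ranks covered genes that passed the test, whose libraries did not overlap and whose mean was at least 10 FPKM in either stage. Just inside the choice were Apol11b in Baso, with a log2 difference of 2.47, and Tcp11l2 in Ortho, with 4.06. Just outside were Ccdc92b in Baso, with 2.43, and Bpgm in Ortho, with 4.02. In Poly the values were 2.80 for Gm45837, just inside, and 2.68 for Gm10371, just outside. Because the differences with Pro chose the genes, they are described below without a test.

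The series compared erythroblasts of 4 consecutive stages from the bone marrow of WT male C57BL/6 mice aged 8 weeks, with 3 libraries a stage. All cells were sorted as negative for CD45, CD11b and GR1. Pro cells, the proerythroblasts, were gated as CD44 high and Ter119 low, and basophilic (Baso), polychromatic (Poly) and orthochromatic (Ortho) erythroblasts were separated by CD44 staining and cell size. No group carried a transgene or received an agent, and the sources used here do not say whether cells of several animals were pooled or whether the 3 libraries of a stage came from separate animals, so the p-values below measure only the spread between libraries. Ortho replicates 2 and 3 are labelled as erythroblasts in general and were placed in Ortho by their titles. Values are FPKM, the fragments counted for a gene scaled by its length and by the fragments of the library.

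Erythroblasts divide a few times after the Pro stage, fill with hemoglobin, condense their chromatin and finally expel the nucleus. Most genes are turned down over this time, while a limited set, transcribed under factors such as GATA1 and KLF1, continues to accumulate RNA. Of the 6 genes, Fam46c (also named Tent5c) encodes a poly(A) polymerase that lengthens the tails of mRNA. Tmcc2 encodes a transmembrane protein with coiled coils, Tcp11l2 a relative of the testis protein Tcp11, and Apol11b a member of the apolipoprotein L family. Fam214b is known mainly by its sequence, and Gm45837 is a gene model without a proper name.

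The GENCODE M21 annotation of mm10 lists all 6 as protein coding. Tmcc2 (ENSMUSG00000042066) lies on the minus strand of chromosome 1 from 132356315 to 132391281 and has 8 exons after overlapping exons are merged. Fam46c (ENSMUSG00000044468) lies on the minus strand of chromosome 3 from 100451628 to 100489324, with 5 exons. Tcp11l2 (ENSMUSG00000020034) lies on the plus strand of chromosome 10 from 84576626 to 84614359, with 9 exons. The gene body of Fam214b (ENSMUSG00000036002) runs along the minus strand of chromosome 4 from 43032414 to 43046220 and that of Apol11b (ENSMUSG00000091694) along the minus strand of chromosome 15 from 77633946 to 77643286. Gm45837 (ENSMUSG00000030653) spans the plus strand of chromosome 7 from 101410886 to 101512819.

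The 250 bases before RefSeq transcription starts (GRCm38.p6) were read for 5 of the 6 genes, because the genes were higher in the same stages. Each window was searched on both strands for 4 GATA words, namely AGATAA, also AGATAG, then TGATAA and finally TGATAG, for the NF-E2 core TGAGTCA and for the word CCACCC that KLF1 binds. No word found in these windows overlapped another. GATA words stood in 26.6%, the NF-E2 core in 4.46% and CCACCC in 28.1% of 32817 windows of the same length in the genome. The windows below are those of the members that hold a GATA word or an NF-E2 core, written 5′ to 3′ on the strand of the gene with the words found, in either direction, in capitals.
Tmcc2, chr1:132367949-132368198, minus strand: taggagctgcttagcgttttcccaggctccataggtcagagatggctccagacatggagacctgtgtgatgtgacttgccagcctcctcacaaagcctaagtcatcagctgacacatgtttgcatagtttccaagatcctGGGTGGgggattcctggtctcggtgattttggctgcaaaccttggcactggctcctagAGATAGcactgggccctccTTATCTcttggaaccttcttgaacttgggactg
Fam214b, chr4:43040302-43040551, minus strand: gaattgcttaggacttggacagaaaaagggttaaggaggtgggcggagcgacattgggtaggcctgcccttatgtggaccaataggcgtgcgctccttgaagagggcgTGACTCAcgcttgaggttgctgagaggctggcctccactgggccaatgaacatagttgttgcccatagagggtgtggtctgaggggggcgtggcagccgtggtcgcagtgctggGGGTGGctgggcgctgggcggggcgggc
Apol11b, chr15:77643287-77643536, minus strand: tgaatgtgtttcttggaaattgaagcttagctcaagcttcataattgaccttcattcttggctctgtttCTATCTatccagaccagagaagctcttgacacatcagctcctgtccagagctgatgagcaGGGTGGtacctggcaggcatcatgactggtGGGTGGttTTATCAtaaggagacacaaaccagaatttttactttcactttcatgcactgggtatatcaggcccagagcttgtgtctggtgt

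The Tmcc2 window, which lies inside the gene's span and outside its annotated exons, held AGATAG at bases -52 to -47 from the start and AGATAA on the opposite strand at -33 to -28, besides 1 CCACCC word. RefSeq places 2 other Tmcc2 starts farther upstream, whose windows held no GATA word. The Fam214b window held the NF-E2 core on the opposite strand at -142 to -136 and 1 CCACCC word. It also lies inside the gene's span and outside annotated exons. RefSeq places another Fam214b start farther upstream, whose window held none of the words. The Apol11b window held 2 GATA words and 2 CCACCC words, all on the opposite strand, and had a GC content of 44.8% against a median of 52.4% in all windows. The windows of Fam46c and Tcp11l2 held none of these words. All 250 bases of the Tcp11l2 window and 132 bases of the Fam46c window lie in annotated exons. These matches describe letters only, and binding was not measured here.

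In the Ortho stage, the mean levels of the 6 genes ranged from 18.3 to 1326 FPKM. Tmcc2 had the highest mean of the 6, 1326 FPKM, above 99.8% of the 12994 genes tested. Fam46c followed with 495 FPKM and Tcp11l2 with 249 FPKM. Apol11b had a mean of 182 FPKM and Fam214b a mean of 104 FPKM, and the libraries of Apol11b overlapped with those of Tcp11l2 and of Fam214b. Gm45837, at 18.3 FPKM, was above 75.4% of the genes tested. Together the 6 genes made up 0.0215% ± 0.00582 (mean ± SD, n = 3) of all FPKM in a Pro library. This share was 0.0913% ± 0.00359 for Baso, 0.0948% ± 0.00270 for Poly and 0.354% ± 0.00410 for Ortho. In RNA of bulk cells, fewer cells of a type and less RNA per cell cannot be told apart.

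**Figure D1:**
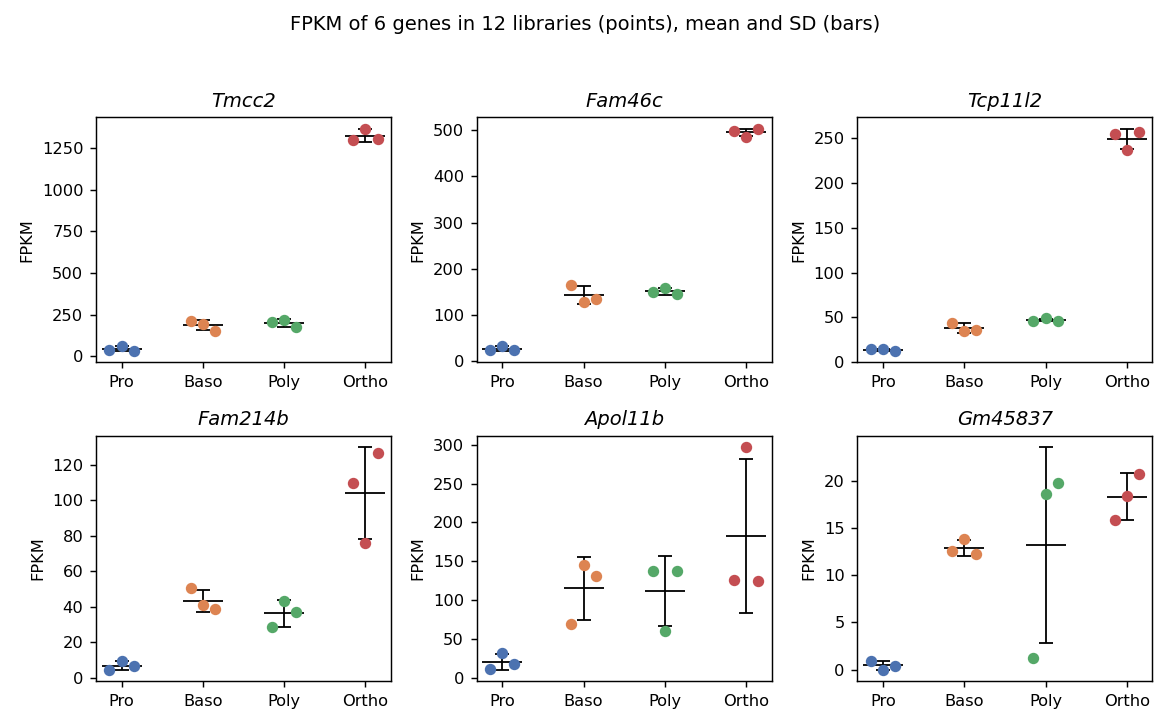
FPKM of each of the 6 genes (one panel each, with its own linear axis) in the 3 libraries of Pro, Baso, Poly and Ortho. Points are libraries and bars the mean and SD; Tmcc2, Fam46c and Tcp11l2 sit close together within Ortho, while Apol11b has 1 Ortho library at 297 FPKM and Gm45837 has 1 Poly library at 1.18 FPKM.

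All 6 genes were higher in every Baso library than in any Pro library, as were 16.8% of all genes tested, and the same held for 6 of 6 in Poly vs. Pro, against 25.3% of all genes, and for 6 of 6 in Ortho vs. Pro, against 23.2%. These counts restate how the genes were chosen. The next steps were less uniform. Between Baso and Poly, 1 of the 6 genes, Tcp11l2, was higher without overlap, against 20.5% of the genes tested. Between Poly and Ortho, 4 of the 6 were higher without overlap (Tmcc2, Fam46c, Tcp11l2 and Fam214b), against 11.3% of the genes tested. Ortho was above Baso without overlap for 5 of the 6, all but Apol11b, against 22.9% of the genes tested. The median log2 difference of the 6 genes was 2.44 from Pro to Baso, 0.01 from Baso to Poly and 1.60 from Poly to Ortho, and over all genes tested it was -0.23, 0.03 and -0.08.

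**Figure D2:**
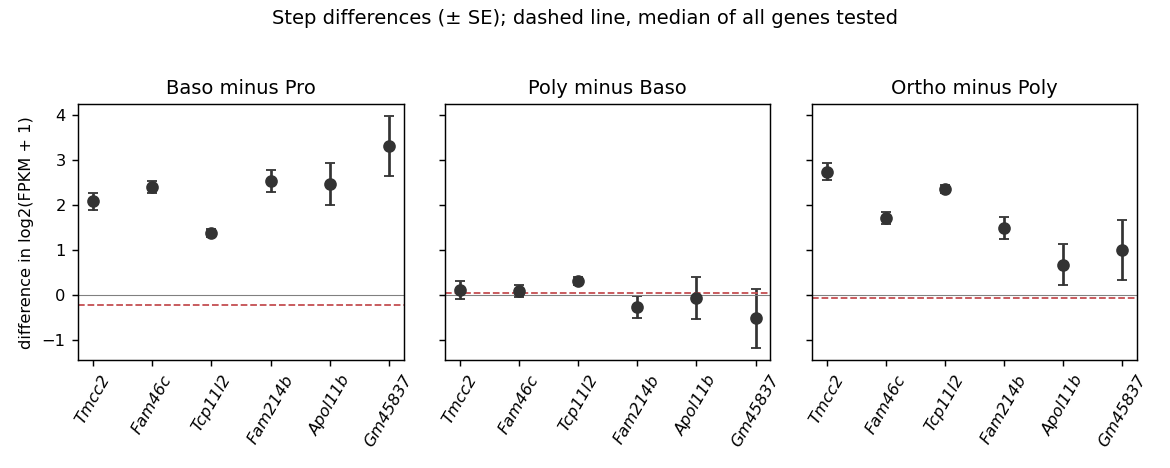
Differences in log2(FPKM + 1) over the 3 consecutive steps for each of the 6 genes, with bars of 1 standard error from the limma model; the dashed line is the median of all genes tested. The values lie between 1.38 and 3.32 for Baso minus Pro, between -0.53 and 0.31 for Poly minus Baso, and between 0.67 and 2.74 for Ortho minus Poly.

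How late the gain came differed between the genes and depended on the scale. In FPKM, the step from Poly to Ortho held 88.0% of the whole gain from Pro to Ortho for Tmcc2, 85.8% for Tcp11l2, 73.5% for Fam46c and 69.8% for Fam214b. For Apol11b and Gm45837 the larger share of the gain, 58.6% and 69.5%, was already there in Baso, so "late" does not describe these genes. On the log2 scale the step from Poly to Ortho exceeded that from Pro to Baso for Tmcc2 (2.74 against 2.08) and Tcp11l2 (2.37 against 1.38), whereas for Fam46c it was 1.71 against 2.41 and for Fam214b 1.49 against 2.54. The differences between these steps were not tested.

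Tmcc2 measured 39.6, 59.9 and 31.9 FPKM in Pro replicates 1 to 3 and 210, 192 and 151 FPKM in Baso. In Poly it measured 203, 219 and 173 FPKM, and in Ortho 1302, 1368 and 1308 FPKM. The Baso and Poly libraries thus overlapped, and every Ortho library was far above them. The stage means were 43.8 ± 14.5, 184 ± 30.1, 198 ± 23.3 and 1326 ± 36.9 FPKM (SD, n = 3). The mean in Ortho was 30.3 times that in Pro and 6.70 times that in Poly, with a log2 difference of 4.94 from Pro and 2.74 from Poly (standard error 0.19 for each). The step from Baso to Poly was tested, as it shares no library with Ortho vs. Pro, in which Tmcc2 ranked 2 of 562 genes. Its log2 difference of 0.11 (standard error 0.19, 95% confidence interval -0.32 to 0.53) had a limma adjusted p of 0.755. Without Baso replicate 3 that difference was -0.028. Of all genes, 0.516% were called in either direction in this step.

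The other Tmcc genes did not share this profile in level. Tmcc1, which encodes a protein of the endoplasmic reticulum, had means of 22.2, 19.6, 20.9 and 17.1 FPKM from Pro to Ortho. Its log2 difference between Ortho and Pro was -0.36, with an adjusted p of 0.00157 but less than the fold needed for a call, and it was 0.11 when libraries were rescaled without hemoglobin genes. Tmcc3 stayed under 1 FPKM in every library.

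Fam46c measured 22.3, 32.9 and 23.4 FPKM in Pro and 164, 128 and 133 FPKM in Baso. It measured 148, 159 and 144 FPKM in Poly and 499, 486 and 502 FPKM in Ortho. As for Tmcc2, the Baso and Poly libraries overlapped, while Pro lay below them and Ortho above. The mean in Ortho, 495 ± 8.52 FPKM, was 18.9 times that in Pro (26.2 ± 5.82) and 3.29 times that in Poly (150.4 ± 7.44). The log2 difference between Ortho and Pro was 4.21 (standard error 0.13). From Baso to Poly the log2 difference was 0.09 (standard error 0.13, 95% confidence interval -0.20 to 0.38) with an adjusted p of 0.698.

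Fam46c was set beside other genes that build, bind or shorten poly(A) tails. Its paralog Fam46a had means of 8.83 FPKM in Pro and 12.2 FPKM in Ortho, with a log2 difference of 0.43 (adjusted p = 0.000615) that was too small for a call, and Fam46b and Fam46d were at or near 0 in all libraries. Of 27 tested genes of the poly(A) list other than Fam46c, 2 were called higher and 9 lower in Ortho vs. Pro, where 6.33% of all genes were called higher and 23.8% lower. The higher genes were Pabpc1, the cytoplasmic poly(A) binding protein (log2 difference 1.34, adjusted p = 2.1e-07), and Btg1, which recruits deadenylases (1.11, adjusted p = 3.24e-05). The lower genes with the largest differences were Pabpc4 (-1.44, adjusted p = 3.16e-07), the tail polymerase Papd7 (-1.32, adjusted p = 2.32e-07) and the deadenylase Parn (-1.20, adjusted p = 4.16e-07). The list's median of -0.45 was close to that of all genes, -0.42. These counts depended on the scaling. The 9 lower calls were lost when libraries were rescaled without hemoglobin genes, which gave 4 higher calls, and both higher calls were lost when libraries were rescaled to the same sum.

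In the step from Poly to Ortho, in which Fam46c differed by 1.71, Pabpc1 was called higher (1.10, adjusted p = 3.99e-06) and Papd7 lower (-1.49, adjusted p = 3.79e-07), and the other 25 tested genes of the list were not called. The call of Pabpc1 was lost when libraries were rescaled to the same sum (0.92, less than the fold needed). Over all genes, 1.05% were called higher and 4.81% lower in this step. Fam46c stood at 495 FPKM in Ortho and Fam46a, the tail polymerase of the same family next in level, at 12.2 FPKM, a comparison of levels per length.

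Tcp11l2 had the smallest spread of the 6 genes in Pro relative to its mean, with an SD of 6.68% of it. It measured 14.7, 14.4 and 13.0 FPKM in Pro and 44.2, 34.4 and 36.2 FPKM in Baso. Later it measured 46.6, 49.0 and 46.6 FPKM in Poly, and 254, 236 and 256 FPKM in Ortho. The stages did not overlap with each other, and each was above the one before. The mean of 249 ± 11.2 FPKM in Ortho was 17.7 times that in Pro (14.0 ± 0.938) and 5.25 times that in Poly (47.4 ± 1.40). From Baso to Poly the log2 difference was 0.31 (standard error 0.09, 95% confidence interval 0.11 to 0.51) with an adjusted p of 0.0496, which was under 0.05 but with less than the fold needed for a call. That p lay between 0.0132 and 0.16 in 23 alternative analyses and was under 0.05 in 8 of them. The related genes Tcp11, a testis gene, and Tcp11l1 were low, with stage means of at most 0.398 and 2.00 FPKM.

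Fam214b measured 4.55, 9.34 and 6.54 FPKM in Pro and 50.4, 41.0 and 38.7 FPKM in Baso. In Poly it measured 28.3, 43.2 and 37.0 FPKM, which overlapped with Baso, and in Ortho 109.8, 75.7 and 126 FPKM. All Ortho libraries were above all others. The mean was 6.37 times as high in Baso (43.4 ± 6.23 FPKM) as in Pro (6.81 ± 2.41). The step from Poly to Ortho shares no library with Baso vs. Pro, in which Fam214b ranked 4 of 178 genes. Fam214b also ranked 14 of 562 genes in Ortho vs. Pro, so the limma test of this step was not independent of the choice. From Poly to Ortho it rose from 36.2 ± 7.45 to 104 ± 25.9 FPKM, with a log2 difference of 1.49 (standard error 0.24, 95% confidence interval 0.96 to 2.02, adjusted p = 0.00058). It was 1 of the 1.05% of genes called higher in this step, and the call held in all 23 alternatives run, with log2 differences of 1.30 to 1.70. Its paralog Fam214a had means from 1.91 FPKM in Pro to 3.26 FPKM in Ortho and was not called in any of the 4 comparisons made (Baso vs. Pro, Ortho vs. Pro, Poly vs. Baso and Ortho vs. Poly).

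Apol11b varied more between the libraries of each stage than Tmcc2, Fam46c, Tcp11l2 and Fam214b did, with an SD of 35.3% to 54.6% of the mean. It measured 11.6, 32.0 and 18.0 FPKM in Pro and 69.0, 145 and 132 FPKM in Baso. It measured 137, 59.5 and 138 FPKM in Poly and 126, 297 and 124 FPKM in Ortho. Pro lay below all other stages, and Baso, Poly and Ortho overlapped. The mean in Baso, 115 ± 40.7 FPKM, was 5.61 times that in Pro, 20.5 ± 10.4 FPKM. From Poly to Ortho, the step that was tested, the log2 difference was 0.67 (standard error 0.46, 95% confidence interval -0.35 to 1.69) with an adjusted p of 0.359. Without Ortho replicate 2 it was 0.26, and without Poly replicate 2 it was 0.27. The interval still allows a difference of over 1 on the log2 scale in Ortho, so these libraries do not settle whether Apol11b differs between Poly and Ortho.

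Mouse apolipoprotein L genes lie in a cluster of near copies, and part of the Apol11b sequence is shared. Of all 50-base words in the Apol11b transcripts, 15.2% also occurred in another gene, 10.9% in Apol11a, 5.71% in Apol10a and 3.33% in Apol10b, so the split of fragments between these genes is uncertain. The ratio of Apol11b to Apol11a ranged from 4.23 in Baso replicate 1 to 20.9 in Ortho replicate 2. The sum of the pair was 13.6, 34.3 and 19.4 FPKM in Pro and 85.3, 154 and 142 FPKM in Baso. It was 149, 69.6 and 151 FPKM in Poly and 144, 311 and 142.5 FPKM in Ortho. The sum therefore kept the spread seen in Apol11b.

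The other expressed Apol genes differed from each other in profile. From stage to stage the mean of Apol11a moved in the same direction as that of Apol11b, with which it shares sequence. Apol11a was called higher in Baso vs. Pro (12.01 against 1.86 FPKM, log2 difference 2.16, adjusted p = 5.98e-06) and in Ortho vs. Pro (16.9 FPKM, 2.65, adjusted p = 2.7e-07). Apol10a was listed at 0.343, 0 and 0.163 FPKM in Pro and had means of 1.97 FPKM in Baso and 2.85 FPKM in Ortho. It passed the filter on low values only through the later stages, so no call against Pro is given for it. Apol8 rose from 37.5 ± 7.17 FPKM in Pro to 116 ± 9.27 FPKM in Baso (1.62, adjusted p = 3.49e-06), was at 113 ± 6.57 FPKM in Poly and fell to 29.9 ± 3.36 FPKM in Ortho (log2 difference between Ortho and Poly -1.88, adjusted p = 7.14e-07). The fall of Apol8 from Poly to Ortho lay between -2.07 and -1.74 under the 3 other scalings. Apol11b in the same step was at 0.67, and the difference between the genes was not tested. In Baso vs. Pro 1.82% of all genes were called higher, and of the other 6 tested relatives of the 6 genes Apol11a and Apol8 were called. The other 6 Apol genes found had stage means of at most 0.398 FPKM.

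**Figure D3:**
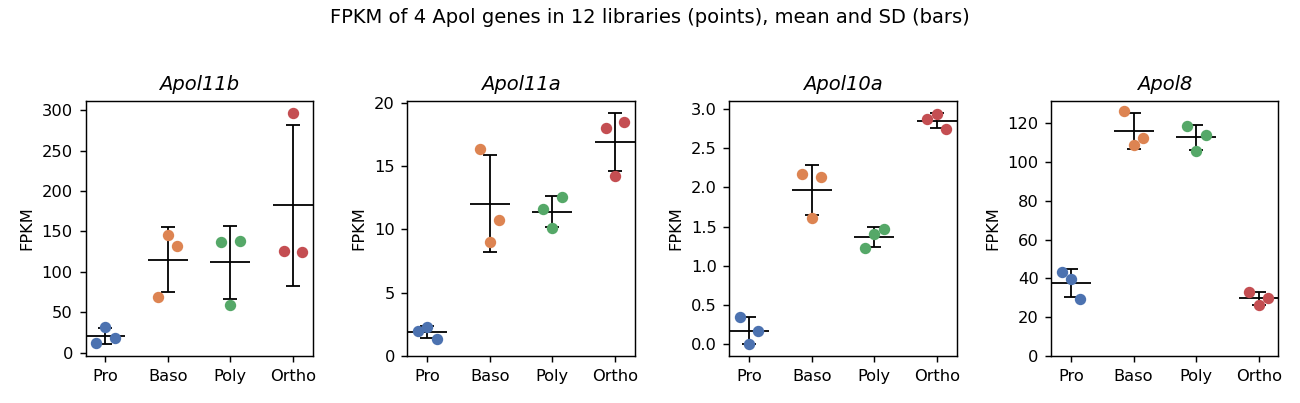
FPKM of Apol11b, Apol11a, Apol10a and Apol8 (one panel each, with its own linear axis) in the 3 libraries of each stage; points are libraries and bars the mean and SD. Apol8 is near 113 to 116 FPKM in Baso and Poly and at 29.9 FPKM in Ortho, where the mean of Apol11b is 182 FPKM.

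Summed over a list of 9 genes that respond to interferon, FPKM was 74.9 to 126 for Pro, 272 to 431 for Baso, 278 to 424 for Poly and 558 to 829 for Ortho. The sum thus rose from Pro to Baso, as all 6 genes did. From Poly to Ortho it rose without overlap, as Tmcc2, Fam46c, Tcp11l2 and Fam214b did, whereas the libraries of Apol11b overlapped. The most abundant gene of this list was Isg15 in Baso (mean 144 FPKM) and Rsad2 in Ortho (mean 330.2 FPKM), and Ifit3 was under 1 FPKM in every Baso library. The genes were not counted or tested one by one. Their part in the values of Apol11b was not tested.

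Gm45837 was listed at 0.910, 0 and 0.387 FPKM in Pro, where its mean was above that of 1.39% of the genes tested. It measured 12.6, 13.8 and 12.2 FPKM in Baso and 15.8, 18.4 and 20.8 FPKM in Ortho. In Poly, replicates 2 and 3 measured 18.6 and 19.7 FPKM, but replicate 1 measured 1.18 FPKM, close to Pro. The log2 difference was 3.32 (standard error 0.66) in Baso and 3.80 in Ortho compared with Pro. Since the Pro values are low, these numbers depend on the pseudocount, and with 0.1 or 5 in place of 1 the difference between Ortho and Pro was 5.64 or 2.10. The difference between Ortho and Poly was 1.0, and without Poly replicate 1 it was -0.07. Gm45837 was chosen on both Baso and Poly and was not tested.

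The model of Gm45837 is not a separate locus. It overlaps Pde2a, a phosphodiesterase that breaks down cyclic nucleotides, on the same strand of chromosome 7, and 3955 exonic bases are common to them. These are 95.6% of the exonic bases of Gm45837 and 64.3% of those of Pde2a, and another 3.62% lie in exons of Arap1. Of the 50-base words in its transcript, 98.1% also occurred in another gene, so its values and those of Pde2a cannot be told apart for most fragments, and how the authors assigned shared fragments is not given in the sources used here. The other members shared far fewer words with any gene, from 0 for Tcp11l2 to 2.12% for Fam214b, apart from Apol11b.

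Pde2a measured 17.5, 23.8 and 18.4 FPKM in Pro and 13.9, 14.1 and 15.6 FPKM in Baso. It measured 43.6, 20.6 and 18.3 FPKM in Poly and 20.3, 16.7 and 17.5 FPKM in Ortho. Poly replicate 1, in which Gm45837 was low, was the library with the highest Pde2a value. Gm45837 made up 4.95%, 0% and 2.06% of the sum of the pair in Pro, 43.8% to 49.5% in Baso and 43.8% to 54.3% in Ortho. In Poly it made up 2.64% in replicate 1 and 47.5% and 51.8% in the others. The sum itself was 20.3 ± 3.03 FPKM for Pro, 27.4 ± 0.799 for Baso, 40.7 ± 3.61 for Poly and 36.5 ± 1.64 for Ortho (SD, n = 3). Poly replicate 1 stood at 44.8 FPKM in this sum, beside 39.2 and 38.0 FPKM, so the libraries of Poly differed far less in the sum than in Gm45837. Poly replicate 1 was also the lowest Poly library for Fam214b (28.3 against 43.2 and 37.0 FPKM) and, by a narrow margin, for Tcp11l2, whereas Tmcc2, Fam46c and Apol11b in it lay between the other Poly libraries.

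**Figure D4:**
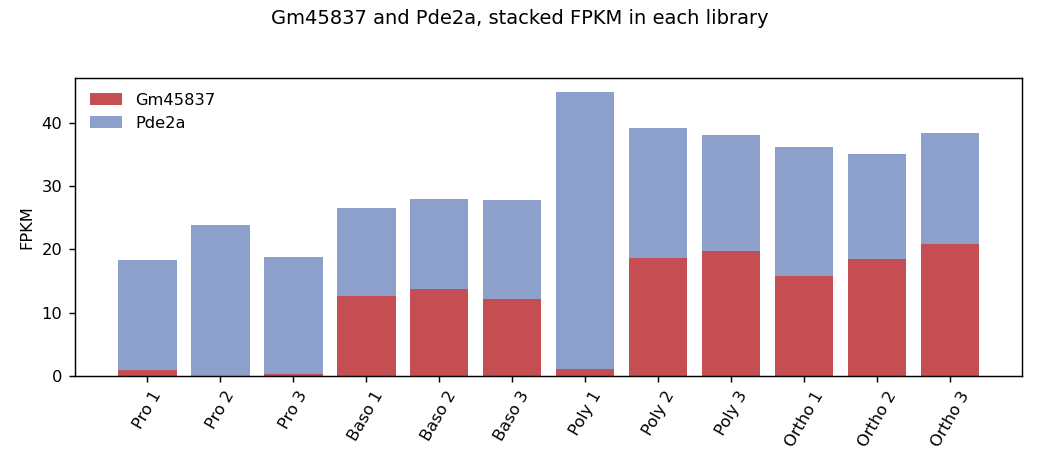
Stacked FPKM of Gm45837 (lower bar) and Pde2a (upper bar) in each of the 12 libraries, named by stage and replicate. The red share is near 0 in Pro and in Poly replicate 1 and 43.8% or more in every other Baso, Poly and Ortho library.

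The profile of each gene over the 12 libraries was compared with those of 7149 other genes by Pearson's r of log2(FPKM + 1). These values describe 12 libraries of 4 stages, in which any gene with steps at the same stages scores high. The profile nearest to Tmcc2 was that of Xpo7, a nuclear export receptor known from erythroid nuclear condensation (r = 0.999), followed by Dcaf12, Specc1, Ube2o and Cat (0.993 to 0.994). Xpo7 had means of 21.99, 97.7, 118 and 948 FPKM in the 4 stages, with the plateau from Baso to Poly and the step to Ortho seen in Tmcc2. Xpo7 was also among the 5 genes nearest to Tcp11l2 (0.994), beside the ubiquitin-conjugating enzymes Ube2b (0.996) and Ube2h (0.995), and Ifnar1. The genes nearest to Fam46c were Adipor1 (0.996), Sowaha, Rnf10, Creg1 and Slfn14 (0.993).

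For Fam214b the nearest genes were Ppp4r3b (0.983), Gm17344, Ccdc92b, Fam46c and Mettl7a1 (0.981). For Apol11b the values were lower, with Rbm38 (0.934), Smox (0.932) and the globin genes Hba-a2, Hba-a1 and Hbb-bs (0.927). Gm45837 was nearest to Kctd14 (0.938) and AK157302 (0.928), both with a Poly replicate 1 below their other Poly libraries (12.04 against 17.3 and 16.3 FPKM, and 15.9 against 18.5 and 18.7 FPKM). Among the 6 genes, r ranged from 0.724 for Tcp11l2 and Gm45837 to 0.990 for Tmcc2 and Tcp11l2.

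The 6 genes were set beside a list of 23 genes of late erythroblasts, among them the globins, the heme enzyme Alas2 and membrane skeleton genes. The median log2 difference of the list was 1.42 from Pro to Baso and 0.61 from Poly to Ortho. The medians of the 6 genes, which were chosen for large differences, were 2.44 and 1.60. With all libraries, all 6 genes exceeded the list median from Poly to Ortho, and all but Tcp11l2 (1.38) did from Pro to Baso. From Poly to Ortho the excess rested on single libraries for Gm45837 and Apol11b. Gm45837 was at -0.07 without Poly replicate 1, and Apol11b at 0.26 without Ortho replicate 2 and 0.27 without Poly replicate 2. For Tmcc2, Fam46c, Tcp11l2 and Fam214b the lowest value with 1 library left out was 1.33, in Fam214b. The values of the list and of the 6 genes overlapped. Slfn14 of the list, at 2.55 and 2.26, was above the medians of the 6 genes in both steps. From Baso to Poly, where Tmcc2, Fam46c and Tcp11l2 were not called, none of the 23 was called by limma. Of them 3 had an unadjusted p under 0.05, and 2 had an adjusted p under 0.05 with less than the fold needed, Fbxo7 (-0.66, adjusted p = 0.00129) and Tfrc (-0.37, adjusted p = 0.0368). From Poly to Ortho, in which Fam214b was called higher, 9 of the 23 were called higher and 1, the spectrin gene Sptb, lower (-1.45). In Ortho vs. Pro the largest differences of the list were those of Xpo7 (5.41), Slfn14 (4.77) and Bpgm (4.02), the range in which Tmcc2, Fam46c and Tcp11l2 lay.

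**Figure D5:**
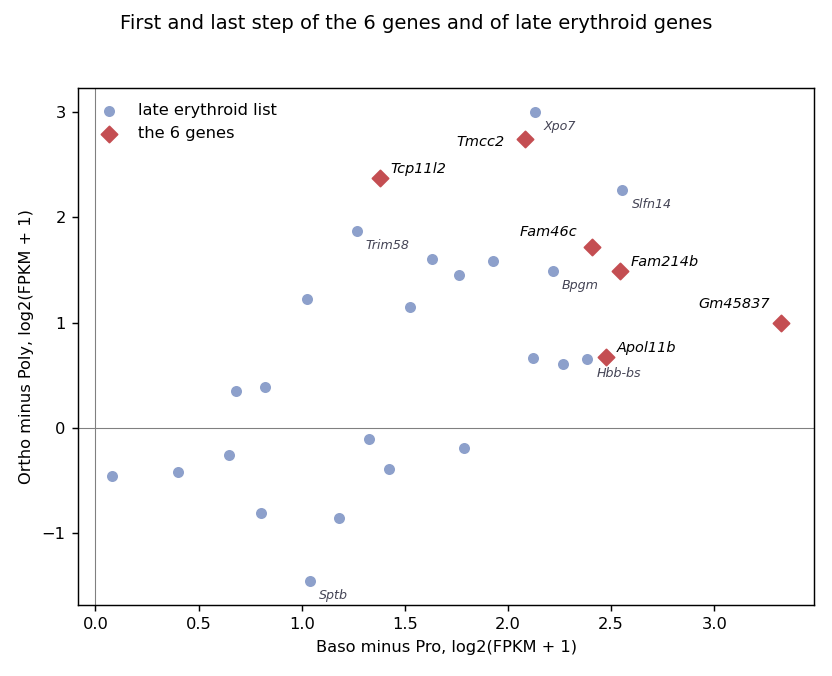
Difference in log2(FPKM + 1) between Baso and Pro (horizontal) and between Ortho and Poly (vertical) for the 6 genes (diamonds) and 23 late erythroid genes (circles). All 6 genes are at 1.38 or more on the horizontal axis and at 0.67 or more on the vertical axis, and Xpo7 lies beside Tmcc2.

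All libraries carried the defining erythroid RNAs, with hemoglobin genes at 8.45% of all FPKM in Pro and at 35.1%, 36.6% and 49.6% in Baso, Poly and Ortho. FPKM is relative within a library, so a larger share of hemoglobin leaves less for the rest. The median log2 difference of all genes between Ortho and Pro moved from -0.42 to -0.03 when hemoglobin genes were left out of the scaling and to -0.72 when libraries were rescaled to the same sum, while that of Tmcc2 moved from 4.94 to 5.42 and 4.57. RNA of genes used as markers of other cells was present despite the sort, and its source was not tested. Summed over 8 neutrophil genes, FPKM was 7041 to 8895 for Pro, 12227 to 14404 for Baso, 15787 to 18777 for Poly and 14030 to 17431 for Ortho, and over 8 B cell genes it was 63.1 to 110 for Pro and 160 to 206 for Ortho. The neutrophil sum thus moved with the 6 genes from Pro to Baso, but Ortho was not above Poly, where Tmcc2, Fam46c, Tcp11l2 and Fam214b were. Summed over 8 macrophage genes, FPKM was 29.3 to 35.2 for Pro, 39.2 to 41.8 for Baso, 48.4 to 55.6 for Poly and 62.3 to 73.9 for Ortho. This sum moved with the 6 genes from Pro to Baso, and with Tmcc2, Fam46c, Tcp11l2 and Fam214b also from Poly to Ortho. The Poly and Ortho libraries of Apol11b and of Gm45837 overlapped. Of the macrophage genes, C1qb, C1qc and Mrc1 were under 1 FPKM in every library, and Cd68 had a mean of 29.1 FPKM in Ortho. Summed over 7 T and NK cell genes, FPKM was 21.4 to 30.2 for Pro and 34.8 to 41.4 for Ortho. Most of it was Nkg7, with a mean of 23.6 FPKM in Pro and 35.1 FPKM in Ortho, while Cd3d, Cd3e, Cd8a and Trbc2 were under 1 FPKM in every library. Summed over 7 megakaryocyte and platelet genes, FPKM was 71.9 to 131 for Pro and 39.6 to 48.3 for Ortho, so this sum fell where the others rose. The part of these cells in the values of the 6 genes was not tested.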

How the data were processed

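The authors trimmed reads with cutadapt and Trimmomatic, aligned them to mm10 with HISAT2 and counted them with SAMtools and featureCounts, per the study's methods and processing notes. The deposited table holds FPKM per gene and library. The FPKM tool, annotation release and versions are not given in the sources used here. The methods describe KAPA Hyper Prep libraries and the labels NEBNext Ultra libraries. Of 29839 lines, 1 repeated identifier was removed. FPKM are not counts, so the depth is unknown and no counting error is given.

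Genes with at least 1 FPKM in at least 3 libraries (12994) entered a limma (3.58.1, under R 4.3.3) model of log2(FPKM + 1), a scale that understates changes of low genes, with a variance trend and all 12 libraries together. The study's own count-based test was not repeated. P-values were two-sided and Benjamini-Hochberg adjusted over all genes tested. Genes were called where this p was under 0.05 and the log2 difference was at least 1 in size. An exact permutation test of 3 against 3 libraries cannot go below 0.1. The fit was tested on simulated data.

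The members and lists were chosen with earlier results of these data known. A member was tested only in a step without libraries of the contrast in which it was among the first 5 genes. Each member also ranked in the other contrasts with Pro, and the model pooled the spread of all libraries. The member tests were thus not independent of the choice. Named genes were the 6 members, family relatives, the 5 genes with the highest Pearson's r for each member (mean of at least 10 FPKM in a stage), the largest called changes of the poly(A) and late erythroid lists, overlapping genes and marker sums. Of these, 1 gene is not reported here.

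Same-numbered libraries deviated together, with correlations from 0.156 to 0.319 among Baso, Poly and Ortho, but from 0.00524 to 0.0968 with Pro. The numbers thus pair the later stages on the values alone. GENCODE M21 gave positions, RefSeq promoter sequences, and Python 3.11.15 the word counts and figures. Alternatives were another pseudocount, filter, scaling or model, the replicate block and leaving out each library.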

Additional observations from a re-analysis of the deposited data

How the results depend on the processing

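The Baso and Ortho differences of the 6 genes with Pro, which chose them, kept their sign in 264 of 264 values from the alternatives. This count is no measure of robustness, because many alternatives cannot change the estimate. For Tmcc2 between Ortho and Pro it stayed at 4.94 without the variance trend, with the replicate block and without any Baso or Poly library. Poly vs. Pro was not run. The number of genes called in Poly vs. Baso was 67, and 122 with a pseudocount of 0.1, 21 with a pseudocount of 5, 1605 with the adjusted p as the only criterion (53.3% of them higher, against 11.9% of the 67) and 49 to 87 when 1 library was left out. In Ortho vs. Poly it was 762, and 439 with a pseudocount of 5, 3397 with the adjusted p alone and 743 to 784 when 1 library was left out. Of these calls 18.0% were higher, against 9.44% when libraries were rescaled to the same sum, 28.6% without hemoglobin genes in the scaling and 31.0% after centring on the median. The cause was not tested. The log2 difference of Tmcc2 between Poly and Baso turned to -0.028 without Baso replicate 3, with a range of -0.028 to 0.21 when 1 library was left out. Apol11b between Poly and Baso ranged from -0.40 to 0.32 and Gm45837 from -1.08 to 0.54 when 1 library was left out.

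With the replicate number as a block, 69 genes were called in Poly vs. Baso and 763 in Ortho vs. Poly, and 74 and 769 with the block and without Pro. The block changed no call among the 5 member tests. Precision is set by 3 libraries a stage, since no counts were used.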
